A study of Homo sapiens with 14 samples.

Results

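The genes described here are the cyclins, the kinase and the kinase inhibitors that set the passage of a cell from G1 phase into S phase. They are the Cip/Kip inhibitors CDKN1A (p21), CDKN1B (p27) and CDKN1C (p57), the INK4 inhibitors CDKN2C (p18) and CDKN2D (p19), the D cyclins CCND1 and CCND3, the E cyclins CCNE1 and CCNE2, and the kinase CDK2. These 10 genes were chosen by symbol, from the 27819 genes that the 4 count tables of the series share, and 9 of them had enough reads to be tested. The cells were CWR22RV1, an established human prostate cancer cell line that expresses the androgen receptor. They were treated for 72 h. The vehicle, DMSO, is represented by 3 libraries. Fucotrim I at 30 μM (n = 3) and Fucotrim II at 60 μM (n = 2) are aimed at GMDS, an enzyme of GDP-fucose synthesis. SGN-2FF at 100 μM (n = 3) is a fluorinated fucose. All 3 are inhibitors of the addition of fucose to glycans, and P-SiaFNEtoc at 2 μM (n = 3) blocks the addition of sialic acid. By lectin staining for fucose, the paper states that both Fucotrims inhibited fucosylation in these cells, with different effectiveness. With Fucotrim I the staining fell too little for its potency to be determined. The paper also states that the Fucotrims lower GDP-mannose. mRNA was sequenced, and the question put to the counts was how each of the 4 inhibitors changed each of these genes against DMSO. The doses differ between the inhibitors, all cells are of 1 line, and the 4 comparisons share the same 3 DMSO libraries.

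In G1 phase the D cyclins bind CDK4 and CDK6, and later the E cyclins bind CDK2. Both kinds of complex phosphorylate the retinoblastoma protein, which then lets go of E2F transcription factors, and these switch on the genes of DNA replication. Cip/Kip inhibitors bind cyclin and kinase together and block CDK2 above all, whereas INK4 inhibitors bind CDK4 and CDK6 alone. In prostate cancer p27 is known as a brake on growth that tumors often lose.

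p27 mRNA rose with 3 of the 4 inhibitors, and cyclin E2 and p18 mRNA fell with all 4. CDKN1B rose with Fucotrim I, Fucotrim II and P-SiaFNEtoc, by 21.1%, 25.9% and 18.1%. CDKN1A rose with Fucotrim I by 40.3% and with P-SiaFNEtoc by 16.5%, and did not pass the test with the other two. CCNE2 fell by 21.4% with Fucotrim I, by 46.7% with Fucotrim II, by 14.4% with SGN-2FF and by 15.9% with P-SiaFNEtoc. CDKN2C fell with all 4 inhibitors too, by 10.5% to 27.9%, but its calls with Fucotrim I and P-SiaFNEtoc were lost in some alternative fits. CDK2 fell with both Fucotrims. CCND1 fell with SGN-2FF and Fucotrim I, but the call with Fucotrim I was lost when some single libraries were left out. CCNE1, the other E cyclin, rose with Fucotrim I.

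The counts on genes added up to between 12553094 and 19981453 per library. Levels are given as CPM, counts divided by library size and scaled between libraries by TMM, and a gene passed the test (was called) where the adjusted p-value of edgeR's quasi-likelihood test against DMSO was under 0.05. Of the 9 luminal prostate markers looked at, all 9 were above 1 CPM in every library, with a summed level of 2168 to 2250 CPM in DMSO, 3083 to 3180 with Fucotrim I, 2879 to 3174 with Fucotrim II, 2764 to 2900 with SGN-2FF and 2513 to 2583 with P-SiaFNEtoc. The basal markers TP63, KRT5 and KRT14 stayed at or under 0.379 CPM. Of the immune markers PTPRC reached 0.189 CPM at most and CD68 lay between 4.59 and 8.03 CPM, and of the neuroendocrine markers CHGA and INSM1 stayed at or under 0.125 CPM while SYP lay between 94.5 and 156 CPM. Of the stromal markers, COL1A1 lay between 15.9 and 29.2 CPM and DCN reached 0.932 CPM at most. The share of counts on mitochondrially encoded genes was 5.98% to 7.03% in DMSO, 8.67% to 14.3% with Fucotrim I, 12.2% and 17.0% with Fucotrim II, 8.28% to 8.69% with SGN-2FF and 6.11% to 6.84% with P-SiaFNEtoc. Without those genes the count of members called was the same with each inhibitor. In bulk libraries, fewer cells in a phase of the cycle and less RNA per cell cannot be told apart.

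Promoter sequences are shown for the genes that rose with Fucotrim I and for CDKN2C, which fell with every inhibitor, so that the regions ahead of genes that moved apart can be read side by side. They come from the RefSeq promoter table (build GRCh38, named hg38 by the study), which lists 6 of the 10 genes with 10 windows of 250 bases before a start site. Each runs 5′ to 3′ toward the start site used by the canonical transcript, and that of CDKN1A is limited to the 150 bases without an annotated exon. Capitals mark the letters GGGCGG, bound by SP1, and CCAAT, the CCAAT box, on either strand.
CDKN1A, chr6:36678560-36678709, plus strand: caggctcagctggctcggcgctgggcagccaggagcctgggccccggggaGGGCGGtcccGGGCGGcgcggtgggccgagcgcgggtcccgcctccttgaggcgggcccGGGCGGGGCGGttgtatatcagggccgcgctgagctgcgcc
CDKN1B, chr12:12717118-12717367, plus strand: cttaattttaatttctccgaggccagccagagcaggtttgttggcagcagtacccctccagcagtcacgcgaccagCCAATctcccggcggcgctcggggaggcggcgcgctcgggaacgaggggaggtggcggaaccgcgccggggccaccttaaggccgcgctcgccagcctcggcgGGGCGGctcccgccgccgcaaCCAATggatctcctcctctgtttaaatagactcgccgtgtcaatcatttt
CCNE1, chr19:29811741-29811990, plus strand: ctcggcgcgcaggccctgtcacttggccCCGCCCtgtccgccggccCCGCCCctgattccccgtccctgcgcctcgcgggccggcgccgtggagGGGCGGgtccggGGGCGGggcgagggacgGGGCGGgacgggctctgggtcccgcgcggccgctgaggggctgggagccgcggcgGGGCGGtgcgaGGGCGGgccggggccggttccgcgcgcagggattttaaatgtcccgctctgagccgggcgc
CDKN2C, chr1:50969995-50970244, plus strand: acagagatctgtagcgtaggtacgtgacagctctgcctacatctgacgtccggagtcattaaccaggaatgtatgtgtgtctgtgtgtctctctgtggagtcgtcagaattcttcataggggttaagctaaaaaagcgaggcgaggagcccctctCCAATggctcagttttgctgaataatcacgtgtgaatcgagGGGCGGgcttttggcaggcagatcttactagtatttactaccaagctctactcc
The CDKN1A stretch holds GGGCGG at 4 places, a pair of them overlapping, and CCNE1 holds it at 7. CDKN1B holds GGGCGG at 1 place and CCAAT at 2, and CDKN2C holds each of them at 1. The counts depend on the start site. A CDKN2C window 1539 bases from the canonical start holds GGGCGG at 5 places and CCAAT at 0, and one 9500 bases away holds neither. Among all 35116 windows of 250 bases in the table, 42.6% hold GGGCGG and 32% hold CCAAT. Of the 10 windows of the members, 8 hold GGGCGG and 5 hold CCAAT. The CDKN1A stretch shown is shorter, and its full window of 250 bases also holds GGGCGG at 4 places. Letters of E2F sites on either strand, spelled TTCCCGC, with the variants TTGGCGC and likewise also TTCGCGC, stand in 9.32% of all windows and in 1 of the 10 windows here, at another CDKN2C start site. The forkhead letters GTAAACA stand in 2.98% of all windows and in 0 of the 10.

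With vehicle alone the 10 genes spanned a wide range of levels per length of the canonical transcript. CCND1 stood first with 578 CPM per kb, and CDK2 (101) and CDKN1B (95.3) came next. CDKN1A had 67.5 CPM per kb and CDKN2C 61.4, followed by CCND3 with 33.9, CCNE2 with 25.9 and CDKN2D with 22.4. CCNE1 was the lowest gene tested, with 5.42 CPM per kb, and CDKN1C had no read in DMSO. The 3 DMSO libraries of each gene in this order did not overlap with those of the next, but CDKN1A (65.3 to 69.9) and CDKN2C (58.2 to 64.8) nearly met. The order depends on the length used. Over all annotated exons, CDKN1A (47.7 CPM per kb) stood above CDKN1B (24.8), CDKN2D (21.2) came before CDKN2C (20.3), and CCND3 (11.9) came after CCNE2 (15.7).

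**Figure D1:**
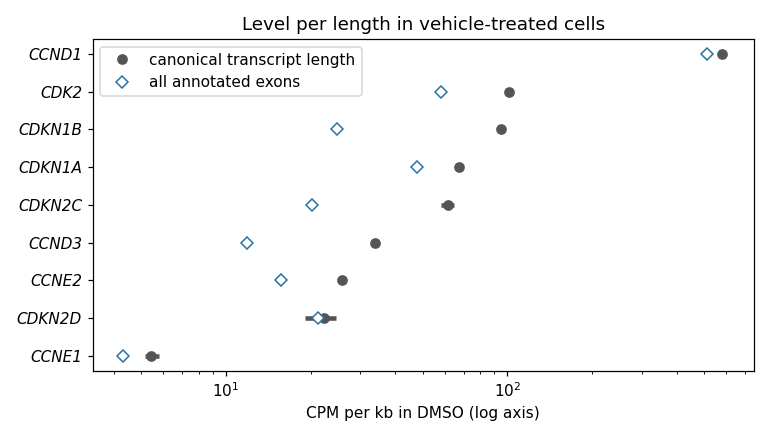
Level of each tested gene in the 3 DMSO libraries as CPM per kb, on a log axis, with points for the mean over the canonical transcript length, bars for the lowest to highest library and open diamonds for the mean over the length of all annotated exons. CCND1 lies highest and CCNE1 lowest with either length, whereas the order between them changes.

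Of the 9 tested genes, 7 were called with Fucotrim I, 3 higher and 4 lower, where 43.8% of all 14188 genes tested were called, 21.6% higher and 22.1% lower. With Fucotrim II 4 were called, 1 higher and 3 lower, against 51.4% of 14617 genes, 25.6% higher and 25.7% lower. SGN-2FF gave 3 calls, all lower, against 20.6% of 14312 genes, 11.5% higher and 9.08% lower. P-SiaFNEtoc gave 2 higher and 2 lower, against 16.3% of 14259 genes, 9.02% higher and 7.33% lower. Treated and vehicle libraries did not overlap for 7, 6, 6 and 5 of the 9, in the same order, which was so for 52.6%, 67.6%, 36.4% and 33.7% of all genes. Whether the genes were called more often than others was not tested. The median log2 fold change over the 9 was, again in that order, 0.07, −0.16, −0.12 and −0.07, beside 0.00 to 0.01 over all genes. The median size of the change, without its sign, was 0.28, 0.24, 0.12 and 0.15 for these genes and 0.21, 0.33, 0.12 and 0.11 for all genes. The genes thus moved in both directions, and their values follow by role.

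**Figure D2:**
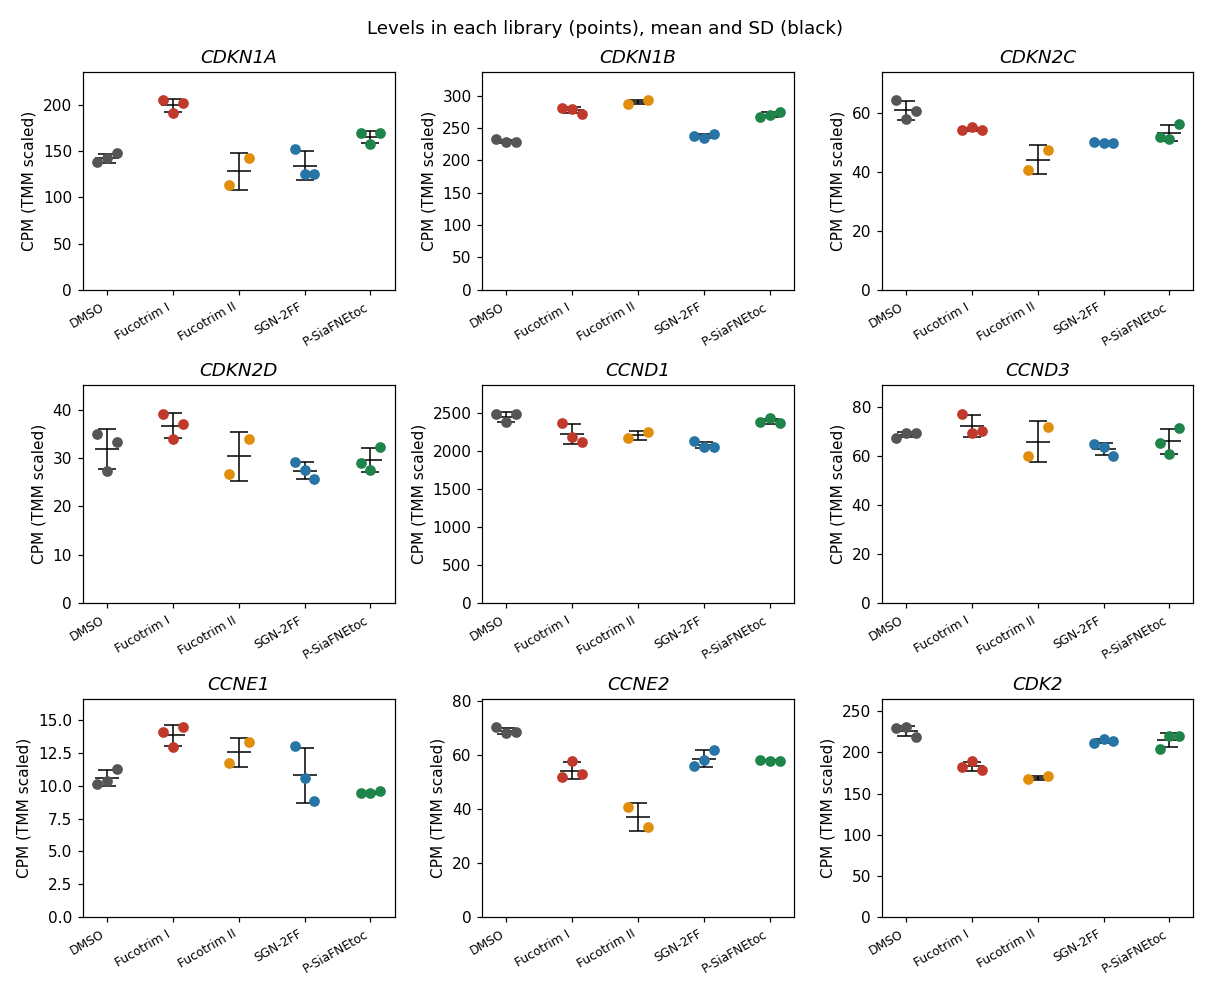
Level of the 9 tested genes in each of the 14 libraries as CPM after TMM scaling, from 0, with points for libraries and black lines for the mean and SD of the group. CDKN1B lies above DMSO with every inhibitor and CCNE2 below it, and the Fucotrim II libraries are far apart for CDKN1A.

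CDKN1A encodes p21, a Cip/Kip inhibitor known to rise in arrested cells (chr6:36676460-36687337, hg38). Its level was 138, 142 and 148 CPM in the DMSO libraries and 205, 191 and 203 CPM with Fucotrim I. It was 114 and 143 CPM with Fucotrim II, 153, 126 and 125 CPM with SGN-2FF, and 169, 158 and 170 CPM with P-SiaFNEtoc. The Fucotrim I libraries were the highest of all, those of P-SiaFNEtoc came next without overlap with DMSO, and those of Fucotrim II and SGN-2FF overlapped with DMSO. The log2 fold change was 0.49 with Fucotrim I (SE 0.05, edgeR adjusted p = 2.53e-07) and 0.22 with P-SiaFNEtoc (SE 0.04, adjusted p = 0.000571). The call with P-SiaFNEtoc was lost when all 14 libraries were fitted together (adjusted p = 0.0964). With Fucotrim II it was −0.16 (95% interval −0.36 to 0.04, adjusted p = 0.169) and with SGN-2FF −0.08 (−0.21 to 0.06, adjusted p = 0.453). These last values lean on single libraries. With SGN-2FF the change ran from −0.17 (without SGN-2FF replicate 1, adjusted p = 0.0198) to −0.03 when each library was left out. With Fucotrim II it was −0.34 without Fucotrim II replicate 2 and −0.007 without Fucotrim II replicate 1. Leaving out a Fucotrim II library leaves 1, which is then assumed to vary as the DMSO libraries do, so such fits are given here by their values only.

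CDKN1A was called higher with Fucotrim I and was not called with Fucotrim II. This led to a direct fit of the Fucotrim II libraries against the Fucotrim I libraries, added after the values were seen. It compares 60 μM of one with 30 μM of the other, so compound and dose cannot be told apart. CDKN1A was lower with Fucotrim II by a log2 difference of −0.64 (SE 0.10, adjusted p = 0.00169), between −0.81 and −0.48 when each library was left out in turn. Of the 9 genes, 2 differed between these treatments (CDKN1A and CCNE2, both lower with Fucotrim II). Of all 14378 genes tested, 9.5% differed, and 3.46% of all 14378 were lower with Fucotrim II. For CDKN1B the difference was 0.07 (95% interval −0.10 to 0.23), an interval that holds 0.

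CDKN1B encodes p27, the Cip/Kip inhibitor of cyclin E and CDK2 (chr12:12685498-12722369). The DMSO libraries held 233, 229 and 228 CPM. Fucotrim I gave 281, 279 and 272 CPM, Fucotrim II 288 and 293 CPM, and P-SiaFNEtoc 267, 271 and 275 CPM. All 8 of these libraries lay above every DMSO library, and replicates of a group differed by a few CPM. The log2 fold changes were 0.28 (SE 0.05, adjusted p = 6.49e-05), 0.33 (SE 0.06, adjusted p = 0.00107) and 0.24 (SE 0.04, adjusted p = 4.18e-05). SGN-2FF gave 237, 235 and 241 CPM, again above the DMSO libraries, with a log2 fold change of 0.06 that did not pass the test (95% interval −0.02 to 0.14, adjusted p = 0.262). A rise beyond 0.14 with SGN-2FF is outside that interval. No other gene overlaps an exon of CDKN1B in the annotation.

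CDKN1C encodes p57, the third Cip/Kip inhibitor (chr11:2883213-2885775), and was close to absent. It had 0 counts in 9 of the 14 libraries, which allows a level of up to 0.165 to 0.188 CPM in the DMSO libraries (3 counts, counting error only). The highest library was replicate 1 of Fucotrim II with 13 counts, or 0.781 CPM, while the other Fucotrim II library had 0. The other libraries with a read had 1 or 2. With no filter on low counts the adjusted p-value with Fucotrim II was 0.0977, and no inhibitor gave a call.

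CDKN2C encodes p18, an INK4 inhibitor that binds CDK4 and CDK6 (chr1:50960745-50974634), and it fell with every inhibitor. The DMSO libraries held 64.5, 57.9 and 60.9 CPM. Fucotrim I gave 54.3, 55.2 and 54.2 CPM, Fucotrim II 40.7 and 47.7 CPM, SGN-2FF 50.4, 49.8 and 50.04 CPM, and P-SiaFNEtoc 52.1, 51.4 and 56.3 CPM. Each of these 11 treated libraries was below each DMSO library. The log2 fold change was −0.47 with Fucotrim II (SE 0.09, adjusted p = 0.00160) and −0.28 with SGN-2FF (SE 0.05, adjusted p = 0.000578). It was −0.20 with P-SiaFNEtoc (SE 0.05, adjusted p = 0.0113) and −0.16 with Fucotrim I (SE 0.06, adjusted p = 0.0394). The last of these calls are fragile. That with P-SiaFNEtoc was lost without DMSO replicate 1 (adjusted p = 0.0735) or P-SiaFNEtoc replicate 2 (0.0740) and in the fit of all 14 libraries (0.0553), and that with Fucotrim I in the DESeq2 test (0.0906) and without DMSO replicate 1 (0.207), DMSO replicate 3 (0.0929), Fucotrim I replicate 1 (0.0752) or Fucotrim I replicate 3 (0.104). An antisense gene lies across 20.4% of the exon bases of CDKN2C, and the strand setting of the counting is not given in the sources used here, so reads of the pair may not have been told apart.

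CDKN2D encodes p19, the other INK4 inhibitor among the 10 genes (chr19:10566460-10569059), and was called with no inhibitor. Its level was 35.0, 27.3 and 33.4 CPM in DMSO, 39.1, 34.0 and 37.0 CPM with Fucotrim I and 26.8 and 33.9 CPM with Fucotrim II. It was 29.1, 27.5 and 25.6 CPM with SGN-2FF and 29.0, 27.5 and 32.4 CPM with P-SiaFNEtoc. DMSO replicate 2 was as low as several treated libraries, and all groups overlapped with DMSO. The log2 fold changes were 0.21 with Fucotrim I (95% interval 0.02 to 0.39, adjusted p = 0.0606), −0.21 with SGN-2FF (−0.37 to −0.04, adjusted p = 0.0762), −0.10 with P-SiaFNEtoc (adjusted p = 0.415) and −0.08 with Fucotrim II (adjusted p = 0.649). The value with Fucotrim I passed without DMSO replicate 1 (0.28, adjusted p = 0.0257) or Fucotrim I replicate 2 (0.26, adjusted p = 0.0341) and with no filter on low counts (0.19, adjusted p = 0.0391). The value with SGN-2FF passed without DMSO replicate 2 (−0.31, adjusted p = 0.00218), with no filter (−0.21, adjusted p = 0.0187) and in limma-voom with quality weights (−0.22, adjusted p = 0.0433), and the value with Fucotrim II was 0.08 without Fucotrim II replicate 1. CDKN2C and CDKN2D, with the same kinase partners, did not share a pattern of calls.

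CCND1 encodes cyclin D1 (chr11:69641156-69654474), and was the most abundant of the 10 genes in every library. DMSO gave 2486, 2372 and 2486 CPM, and SGN-2FF gave 2124, 2053 and 2052 CPM, all below DMSO. Fucotrim I gave 2366, 2180 and 2119 CPM and Fucotrim II 2162 and 2242 CPM, again below DMSO, although Fucotrim I replicate 1 was only just lower than DMSO replicate 2. P-SiaFNEtoc gave 2380, 2426 and 2361 CPM, which overlapped with DMSO. CCND1 fell with SGN-2FF by 0.23 on the log2 scale (SE 0.03, adjusted p = 1.26e-05) and with Fucotrim I by 0.14 (SE 0.05, adjusted p = 0.0310). The call with Fucotrim I was lost without DMSO replicate 1 (adjusted p = 0.115), DMSO replicate 3 (0.125), Fucotrim I replicate 2 (0.0519) or Fucotrim I replicate 3 (0.192). With Fucotrim II the log2 fold change was −0.16 and missed the threshold (95% interval −0.32 to 0.00, adjusted p = 0.0856), and it passed in the fit of all 14 libraries (adjusted p = 0.0219). With P-SiaFNEtoc it was −0.03 (−0.12 to 0.05, adjusted p = 0.651), so a fall as large as that with SGN-2FF is outside the interval. An opposite-strand gene, LTO1, covers 10.4% of the exon bases of CCND1, at 26.0 CPM in DMSO.

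CCND3 encodes cyclin D3 (chr6:41934934-42050357), which also pairs with CDK4 and CDK6, and was called with no inhibitor. It lay between 59.99 and 77.3 CPM in all 14 libraries, with 67.6 to 69.4 CPM in DMSO. The SGN-2FF libraries (65.0, 63.7 and 59.99 CPM) were below those of DMSO, with a log2 fold change of −0.12 (95% interval −0.22 to −0.01, adjusted p = 0.105). The other groups overlapped with DMSO, and the log2 fold changes were 0.07 and −0.07 with Fucotrim I and Fucotrim II, and −0.06 with P-SiaFNEtoc. The value with Fucotrim II was decided by a single library, being 0.06 without replicate 1 (59.99 CPM) and −0.21 without replicate 2 (71.9 CPM).

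CCNE1 encodes cyclin E1 (chr19:29811991-29824312), a partner of CDK2, and had the fewest reads of the tested genes, 116 to 236 counts per library. It was at 10.1, 10.4 and 11.3 CPM in DMSO and 14.1, 12.96 and 14.5 CPM with Fucotrim I, which do not overlap. The level was 11.8 and 13.3 CPM with Fucotrim II, 13.02, 10.6 and 8.81 CPM with SGN-2FF, and 9.42, 9.45 and 9.57 CPM with P-SiaFNEtoc. Fucotrim II thus lay above DMSO, P-SiaFNEtoc below it, and the SGN-2FF libraries on both sides. The rise with Fucotrim I was 0.39 on the log2 scale (SE 0.10, adjusted p = 0.00418). The log2 fold changes with Fucotrim II (0.24, 95% interval −0.01 to 0.50, adjusted p = 0.0987) and P-SiaFNEtoc (−0.15, −0.36 to 0.05, adjusted p = 0.310) did not pass. With SGN-2FF the value was 0.04 (adjusted p = 0.841), and −0.10 without SGN-2FF replicate 1.

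CCNE2 encodes cyclin E2, the second partner of CDK2 (chr8:94879770-94896678), and fell with every inhibitor. The DMSO libraries held 70.4, 68.3 and 68.8 CPM. Fucotrim I gave 51.8, 57.7 and 53.0 CPM, Fucotrim II 40.7 and 33.4 CPM, SGN-2FF 55.9, 58.2 and 62.0 CPM, and P-SiaFNEtoc 58.2, 58.0 and 57.9 CPM. Every treated library was below every DMSO library, and the Fucotrim II libraries were the lowest. The log2 fold change was −0.91 with Fucotrim II (SE 0.09, adjusted p = 6.25e-05), −0.35 with Fucotrim I (SE 0.06, adjusted p = 0.000107), −0.25 with P-SiaFNEtoc (SE 0.05, adjusted p = 0.000492) and −0.22 with SGN-2FF (SE 0.05, adjusted p = 0.00269). CCNE2 was lower with 60 μM Fucotrim II than with 30 μM Fucotrim I by a log2 difference of −0.55 (SE 0.11, adjusted p = 0.00658), a call lost without Fucotrim I replicate 3 (−0.57, adjusted p = 0.0505). Genes on the other strand, INTS8 among them, overlap 37.1% of the exon bases of CCNE2. INTS8 stood at 65.7 CPM in DMSO and itself had log2 fold changes of −0.33, −0.46, −0.10 and −0.21 with Fucotrim I, Fucotrim II, SGN-2FF and P-SiaFNEtoc, all but the third passing the test. Its part in the values of CCNE2 was not tested.

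CDK2, the kinase of both E cyclins (chr12:55966781-55972789), fell with the Fucotrims. It was at 230, 231 and 219 CPM in DMSO, 182, 189 and 178 CPM with Fucotrim I and 168 and 171 CPM with Fucotrim II, far below DMSO. SGN-2FF gave 211, 217 and 213 CPM, also below DMSO but closer to it, and P-SiaFNEtoc gave 205, 220 and 220 CPM, which overlapped with it. The log2 fold change was −0.43 with Fucotrim II (SE 0.06, adjusted p = 0.000375) and −0.30 with Fucotrim I (SE 0.05, adjusted p = 4.51e-05). With SGN-2FF and P-SiaFNEtoc it was −0.07 in each case (95% intervals −0.15 to 0.01 and −0.16 to 0.01, adjusted p = 0.187 and 0.226). Genes on the other strand overlap 16.8% of the exon bases of CDK2, and the one with a symbol, PMEL, was at 2.15 CPM in DMSO.

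**Figure D3:**
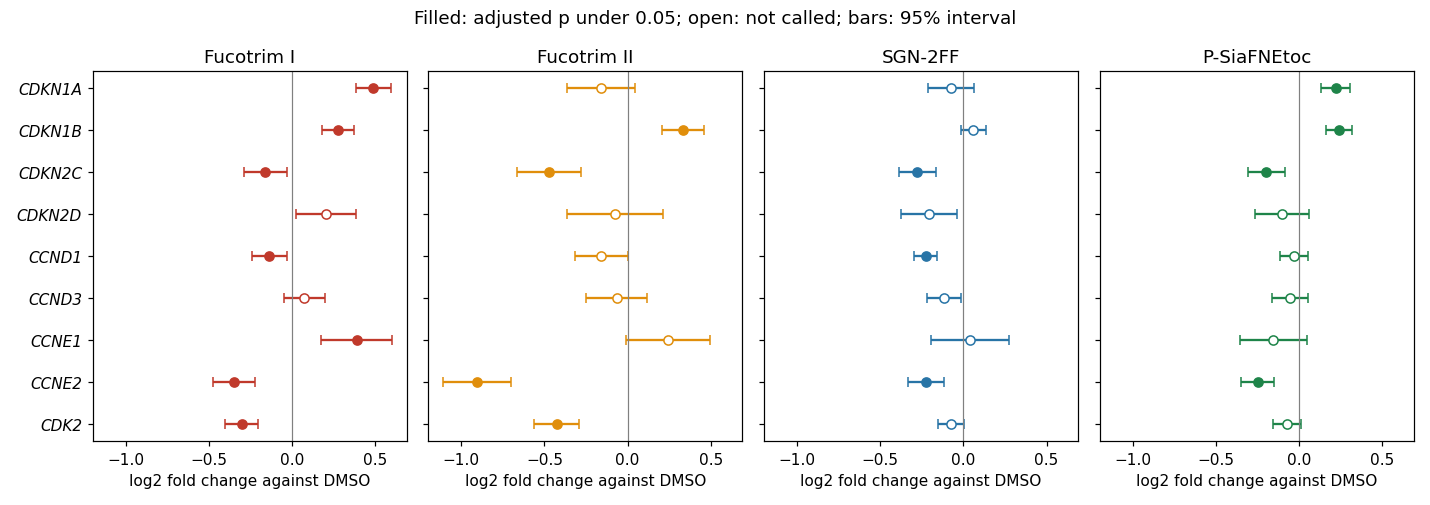
Log2 fold change of the 9 tested genes against DMSO for each inhibitor, with 95% intervals as bars and filled points where the adjusted p-value was under 0.05. CCNE2 and CDKN2C lie below 0 with filled points in all 4 panels, and CCNE2 with Fucotrim II lies lowest, at −0.91.

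Ratios of counts within a library need no scaling between libraries. They were chosen after the values were seen and are given without a test. The ratio of CDKN1B to CDK2 counts, an inhibitor over the kinase it blocks, was 1.01, 0.993 and 1.04 in DMSO. It was 1.55, 1.48 and 1.53 with Fucotrim I, 1.72 and 1.72 with Fucotrim II, 1.31, 1.23 and 1.25 with P-SiaFNEtoc and 1.12, 1.09 and 1.13 with SGN-2FF. All treated libraries had a higher ratio than the DMSO libraries, and no group overlapped with another. The ratio of CCNE2 to CCNE1 counts was 6.96, 6.57 and 6.10 in DMSO, 3.67, 4.45 and 3.66 with Fucotrim I and 3.45 and 2.50 with Fucotrim II. The balance of E cyclin reads thus moved toward CCNE1 with both Fucotrims, without overlap with DMSO. With SGN-2FF the ratio spread from 4.29 to 7.04 and with P-SiaFNEtoc it was 6.05 to 6.18, both of which overlapped with DMSO.

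**Figure D4:**
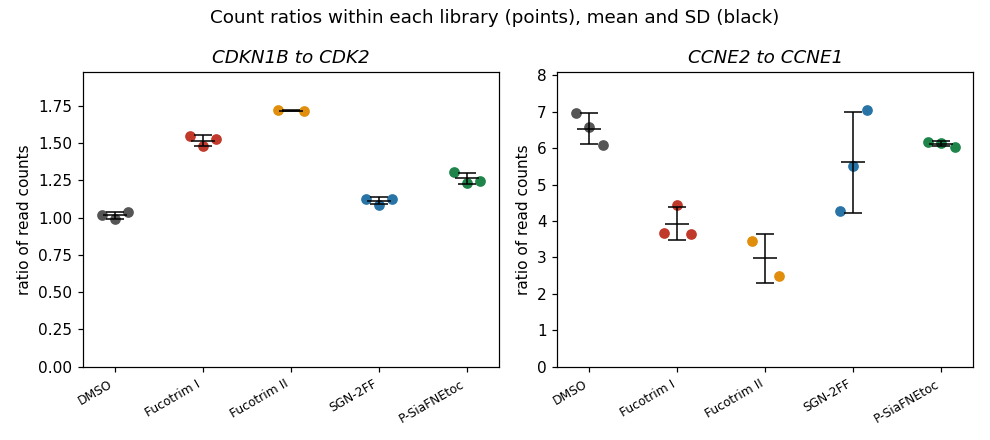
Ratio of read counts within each library, CDKN1B to CDK2 on the left and CCNE2 to CCNE1 on the right, both from 0, with points for libraries and black lines for the mean and SD of the group. The left ratio is 0.993 to 1.04 in DMSO and 1.72 with Fucotrim II, and the right one is 6.10 to 6.96 in DMSO and 2.50 to 3.45 with Fucotrim II.

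Genes most like a member were searched by the root mean square difference in the log2 fold changes against DMSO over the 4 inhibitors, among 11827 genes. The nearest to CDKN1B were ZNF219 (0.0208) and YDJC (0.0228), and to CCNE2 they were PARPBP (0.0231) and FAM126A (0.0235). For CCND1 they were SUFU (0.0288) and CA5B (0.0297). CDKN1A had no gene as near, the closest being WNT2 (0.120) and CLDN23 (0.129). WNT2 had a log2 fold change of 0.44 with Fucotrim I and −0.30 with Fucotrim II, beside 0.49 and −0.16 for CDKN1A.

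Among the other G1 kinases and the retinoblastoma pathway, the largest called fall with each inhibitor was that of CDK6, a partner of the D cyclins. Of 15 listed genes, 14 were tested (CCND2 had 0 counts in 13 of 14 libraries and 1 in the other). With Fucotrim I 1 rose and 4 fell, with Fucotrim II 1 rose and 7 fell, with SGN-2FF 2 rose and 2 fell, and with P-SiaFNEtoc 2 fell, where 22.1%, 25.7%, 9.08% and 7.33% of all genes fell. The median log2 fold change of the list was −0.07, −0.12, −0.02 and 0.00. CDK6 was at 52.7 ± 1.21 CPM in DMSO (SD, n = 3), 34.8 ± 1.99 with Fucotrim I (n = 3), 27.3 ± 0.665 with Fucotrim II (n = 2), 38.4 ± 2.52 with SGN-2FF (n = 3) and 44.1 ± 2.65 with P-SiaFNEtoc (n = 3), and fell by 0.59, 0.95, 0.45 and 0.25 on the log2 scale. CDK4, the other D cyclin partner, had log2 fold changes of 0.04, 0.03, 0.10 and 0.09 and rose with SGN-2FF (adjusted p = 0.0439). Among the INK4 inhibitors outside the members, CDKN2A was called with no inhibitor. CDKN2B, with a mean of 62.6 counts per library, was called with Fucotrim II only, as lower (−0.49, adjusted p = 0.0386). Of the retinoblastoma family, RB1 fell with Fucotrim II (−0.47), SGN-2FF (−0.15) and P-SiaFNEtoc (−0.13), RBL1 fell with Fucotrim I (−0.22) and Fucotrim II (−0.49), and RBL2 was not called. E2F1 was called with no inhibitor. E2F2 (−0.24 and −0.46) and E2F3 (−0.31 and −0.57) fell with Fucotrim I and Fucotrim II, and were not called with SGN-2FF or P-SiaFNEtoc. E2F4, known mainly as a repressor, rose with Fucotrim I (0.19), Fucotrim II (0.25) and SGN-2FF (0.14, adjusted p = 0.0498). Its SGN-2FF libraries overlapped with those of DMSO.

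The next list holds genes that degrade or activate these cyclins and inhibitors. Of 13 tested from a list of 14, 3 rose and 7 fell with Fucotrim I, 2 rose and 8 fell with Fucotrim II, 2 rose and 4 fell with SGN-2FF, and 1 rose and 2 fell with P-SiaFNEtoc, with median log2 fold changes of −0.14, −0.29, −0.05 and 0.01. Of all genes, 21.6%, 25.6%, 11.5% and 9.02% rose and 22.1%, 25.7%, 9.08% and 7.33% fell with these inhibitors in the same order, and the counts of this list and of those that follow stand beside these shares. CDK7 was left out, with 0 to 47 counts per library, while its cyclin CCNH was at 42.6 CPM in DMSO. Whether reads of CDK7 were missed in the counting was not tested. SKP2, the ubiquitin ligase subunit that marks p27 for degradation, fell with Fucotrim I (−0.30, adjusted p = 0.000546) and Fucotrim II (−0.53, adjusted p = 0.000181), with −0.03 and −0.09 for SGN-2FF and P-SiaFNEtoc. CKS1B, its cofactor, fell with the Fucotrims too (−0.33 and −0.39), and CKS2 fell with all 4 inhibitors (−0.24, −0.90, −0.16 and −0.25). CDC25A, the phosphatase that activates CDK2, also fell with all 4 (−0.37, −0.57, −0.16 and −0.17). FBXO31, a ubiquitin ligase subunit for cyclin D1, rose with Fucotrim I (0.53), Fucotrim II (0.67) and SGN-2FF (0.25). CCNH, the cyclin of CDK7, fell with Fucotrim I (−0.24) and Fucotrim II (−0.38) and rose with SGN-2FF (0.20) and P-SiaFNEtoc (0.20).

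The cyclins and the kinase of S, G2 and M phase, which act after the genes of G1, fell together. All 5 listed genes fell with Fucotrim I, Fucotrim II and P-SiaFNEtoc, where 22.1%, 25.7% and 7.33% of all genes fell, and 3 of 5 with SGN-2FF, where 9.08% did, with median log2 fold changes of −0.38, −0.91, −0.17 and −0.12. CCNA2 fell by 0.57, 1.19, 0.18 and 0.17 on the log2 scale with Fucotrim I, Fucotrim II, SGN-2FF and P-SiaFNEtoc. CCNB1 was at 232 ± 4.22 CPM in DMSO (SD, n = 3), 177 ± 9.09 with Fucotrim I (n = 3) and 98.3 ± 9.16 with Fucotrim II (n = 2), and fell by 0.39 and 1.25, and by 0.11 and 0.13 with SGN-2FF and P-SiaFNEtoc. CDK1 fell with Fucotrim I (−0.18), Fucotrim II (−0.78) and P-SiaFNEtoc (−0.25), and was at −0.12 with SGN-2FF (adjusted p = 0.0570). CCNF had the largest called fall of the list with SGN-2FF (−0.20) and P-SiaFNEtoc (−0.27).

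Among 15 transcription factors known to act at promoters of these genes, 2 rose and 2 fell with Fucotrim I, 7 rose and 2 fell with Fucotrim II, 3 rose and 1 fell with SGN-2FF, and 3 rose and 2 fell with P-SiaFNEtoc. The median log2 fold change was −0.07, 0.23, 0.01 and 0.08, and 25.6% of all genes rose with Fucotrim II. KLF4, a factor known at the CDKN1A promoter, rose with all 4 inhibitors by 0.71, 0.94, 0.29 and 0.36. MYC, known to repress CDKN1A, rose with Fucotrim II (0.23), SGN-2FF (0.32) and P-SiaFNEtoc (0.20), with 0.10 for Fucotrim I (adjusted p = 0.0861). Of the forkhead factors of CDKN1B, FOXO3 (0.26, adjusted p = 0.0312) and FOXO4 (0.31, adjusted p = 0.0353) rose with Fucotrim II and FOXO1 was not called. CTNNB1, a coactivator at CCND1, fell with the Fucotrims (−0.31 and −0.44), SMAD4 had the only called fall of the list with SGN-2FF (−0.19) and JUN the largest called fall with P-SiaFNEtoc (−0.24). FOS had a larger value with P-SiaFNEtoc, −1.22, that missed the threshold (adjusted p = 0.0542).

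Cyclins and kinases outside the G1 machinery served for comparison. Of 11 transcriptional cyclins and kinases, which regulate RNA polymerase II and splicing, 2 rose and 4 fell with each Fucotrim, 2 rose and 1 fell with SGN-2FF, and 1 rose and 3 fell with P-SiaFNEtoc, with median log2 fold changes of −0.07, −0.13, −0.08 and −0.10, beside the shares of all genes given for the list of degrading and activating genes. The largest called rises were CCNL2 with the Fucotrims (0.65 and 1.11), CCNL1 with SGN-2FF (0.28) and CDK19 with P-SiaFNEtoc (0.16). The largest called falls were CDK8 with Fucotrim I (−0.39), CCNT1 with Fucotrim II (−0.62) and SGN-2FF (−0.16), and CCNT2 with P-SiaFNEtoc (−0.23). Of 12 atypical cyclins and kinases, 2 rose and 5 fell with Fucotrim I, 2 rose and 4 fell with Fucotrim II, 2 rose with SGN-2FF and 3 rose with P-SiaFNEtoc, with medians of −0.11, −0.10, −0.02 and 0.05. CDK10, a kinase of ETS2, rose by 0.37 with SGN-2FF and by 0.86 and 1.24 with the Fucotrims, and CDK18 rose with all 4 inhibitors, by 0.75, 0.60, 0.70 and 0.51. The largest called rise among the 9 G1 genes was that of CDKN1A with Fucotrim I (0.49). CDK14 (−0.40 with Fucotrim I) and CDK17 (−0.50 with Fucotrim II) had the largest falls of the list, CCNG2, a cyclin linked to arrest, fell with Fucotrim I (−0.28) and rose with P-SiaFNEtoc (0.23), and CCNG1 was not called.

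**Figure D5:**
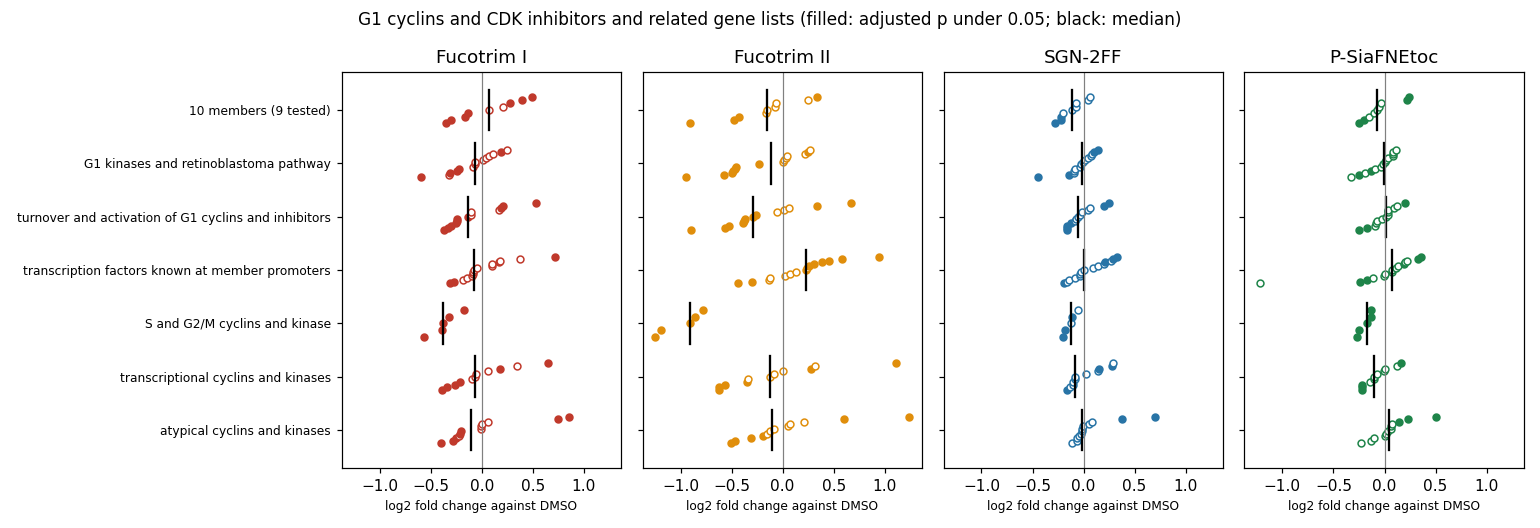
Log2 fold change against DMSO of the members and of each gene list, 1 panel per inhibitor, with a point per gene, filled where the adjusted p-value was under 0.05, and a black line for the median. The 5 cyclins and kinase of S, G2 and M phase lie on the left of 0 in each panel, with a median of −0.91 for Fucotrim II, while the other lists lie on both sides.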

How the data were processed

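The 14 libraries came from CWR22RV1 cells. Per the study's methods, stranded mRNA libraries were sequenced as single reads, trimmed with Cutadapt, mapped to hg38 with HISAT2 and counted with featureCounts. The annotation release, the strand setting and the treatment of reads that map to several genes are not given in the sources used here. The authors deposited whole-number counts per gene, not normalized, in 1 table per inhibitor with the same 3 DMSO libraries in each. For Fucotrim II, 2 of the 3 repeats that the study states were analysed.

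The members were found by gene symbol, and by NCBI gene number in the SGN-2FF table, which has no symbols. The members and gene lists were chosen with earlier results of these data known. Each inhibitor was fitted with DMSO alone in edgeR 4.0.16 (R 4.3.3), with filterByExpr (minimum count 10, minimum total 15), TMM scaling and the robust two-sided quasi-likelihood test. P-values were adjusted over all genes tested by the Benjamini-Hochberg method. CPM values are scaled over the 14 libraries, and the levels per length use GENCODE transcripts. The script was tested on simulated counts. Depth, at 12553094 to 19981453 counts per library, limits mainly CCNE1 and CDKN1C. Replicates of a group differed by more than counting noise, and none was merged.

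Besides the members, the genes named were 18 fixed genes (1 of them is not reported here), the largest called rise and fall of each list with each inhibitor, and 2 genes most like each of 4 members, with a mean of at least 50 counts. INTS8, PMEL and LTO1 were named for their overlap. FOXO4, FOS, CDKN2A, CDKN2B, E2F2 and E2F3 were named after their values were seen. CCND2, CDK7, and the values of a named gene with other inhibitors, were given for completeness. Alternatives were DESeq2 1.42.0 and its size factors, limma-voom 3.58.1 with and without quality weights, no filter, 10 counts in every library, an adjusted p under 0.01, a single fit, no mitochondrial genes, each library left out and a replicate block.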

Additional observations from a re-analysis of the deposited data

Results flagged for a closer look

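The libraries of the E cyclin CCNE1 lay on opposite sides of DMSO with different inhibitors. All lay above DMSO with Fucotrim I (log2 fold change 0.39) and Fucotrim II (0.24) and all below it with P-SiaFNEtoc (−0.15), while those of SGN-2FF lay on both sides (0.04). Of these values only that with Fucotrim I passed the test. Treated and DMSO libraries did not overlap, in either direction, for 52.6%, 67.6% and 33.7% of all genes with Fucotrim I, Fucotrim II and P-SiaFNEtoc. The difference between the inhibitors was not tested.

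CDKN1A and CCNE2 were lower with 60 μM Fucotrim II than with 30 μM Fucotrim I in a direct fit, by log2 differences of −0.64 and −0.55 (edgeR adjusted p = 0.00169 and 0.00658). That fit was added after the values of CDKN1A were seen. CDKN1A thus differed between these treatments, in which compound and dose cannot be told apart. CDKN1B did not pass the same test (adjusted p = 0.625), and whether the genes differed from each other was not tested. The 2 Fucotrim II libraries differed by 24.2 per gene in a chi-square statistic where counting noise alone gives about 1, the largest value among replicates, and their shares of mitochondrial counts were 17.0% and 12.2%. The part of these differences in the results was not tested.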

How the results depend on the processing

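The 36 changes of the 9 genes were each read again under 16 alternative settings, which gave 576 values from far fewer fits. Of these settings, an adjusted p under 0.01 changed the threshold only. The direction and the side of the threshold held in 541, a call was lost in 17 (5 changes), a call was gained in 15 (7 changes) and the sign turned in 3. With libraries left out in turn, uncalled log2 fold changes turned for CDKN2D with Fucotrim II (−0.26 to 0.084, higher without Fucotrim II replicate 1), CCND3 with Fucotrim II (−0.21 to 0.059, likewise) and CCNE1 with SGN-2FF (−0.10 to 0.16, lower without SGN-2FF replicate 1). The difference in CCND1 between the Fucotrims ranged from −0.053 to 0.034 and turned without Fucotrim I replicate 1 or Fucotrim II replicate 1.

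The members called numbered 5 to 7 with Fucotrim I, 4 to 7 with Fucotrim II, 3 to 4 with SGN-2FF, 3 to 4 with P-SiaFNEtoc and 1 to 4 between the Fucotrims when each library was left out, and 2 with P-SiaFNEtoc in the single fit of 14 libraries. Leaving out a Fucotrim II library leaves 1, assumed to vary as DMSO does. Those fits gave the 6 and 7 members called with Fucotrim II, and leaving out a DMSO library gave 4. Over all genes, leaving out a library gave 4877 to 6297 calls with Fucotrim I, 5916 to 8271 with Fucotrim II, 1642 to 3109 with SGN-2FF and 1516 to 2115 with P-SiaFNEtoc, and 336 to 2916 between the Fucotrims. With SGN-2FF 2946 genes were called, and 1949 by DESeq2, 1609 at an adjusted p under 0.01 and 1695 in the single fit. With P-SiaFNEtoc 2331 were called, and 1463, 1171 and 998. The genes called over the 6 lists fell from 22 to 12 without DMSO replicate 3 with either SGN-2FF or P-SiaFNEtoc, and to 13, 14 and 12 without SGN-2FF replicate 2, SGN-2FF replicate 1 and P-SiaFNEtoc replicate 2. The cause of these shifts was not tested.

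By the numbers in the titles, correlations of deviations between treated and DMSO libraries were −0.255 to 0.157, of mixed sign. With so few libraries, these values cannot decide whether the title numbers pair the libraries. The numbers in the library names of Fucotrim II gave 0.255 and 0.0777. With only 2 Fucotrim II libraries, their deviations from the group mean mirror each other. The value 0.255 is therefore the title value −0.255 with its sign turned, and is no separate evidence on pairing. With the replicate block the members called were 8, 3, 3 and 4 with Fucotrim I, Fucotrim II, SGN-2FF and P-SiaFNEtoc, and 5 with Fucotrim II by library names. Over all genes, the block by titles gave 7288 calls with Fucotrim I, against 6209 without it. With Fucotrim II it gave 5294, against 7511. The block by titles lost CDKN1B with Fucotrim II (0.32, adjusted p = 0.0777) and gained CDKN2D with Fucotrim I (0.21, adjusted p = 0.00514), and the block by library names gained CDKN1A with Fucotrim II (−0.20, adjusted p = 0.0482).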
